A study of Mus musculus with 6 samples.

Results

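Potassium channel subunit genes were taken from the gene table by symbol, as every gene whose symbol begins with Kcn, a family letter (a to k, m, n, q, s, t, u or v) and a digit, with Kcnj8 left out. The table of 17714 genes held 75 of them, and 36 had enough counts to be tested between the groups. The libraries were made from RNA of mouse heart cells labelled as lymphatic endothelial cells, 3 from mice after myocardial infarction (MI) and 3 after sham operation, all wild type (labelled WT) and all at day 3. The labels mention either whole heart tissue or primary endothelial cells, name a serum-containing medium, and give no sorting step, no strain and no age. They do not say whether the libraries of a group came from separate animals, and where they did not, a p-value covers library-to-library variation that may be technical.

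Potassium channels let potassium leave or enter the cell through a selective pore and so set the resting voltage and its recovery after excitation. Voltage-gated channels open on depolarisation, inward rectifiers hold the resting potential, calcium-activated channels couple the voltage to intracellular calcium, and two-pore channels carry background leak current. In cardiomyocytes several of these currents repolarise the action potential. In macrophages and lymphocytes, potassium efflux through a small set of channels sustains calcium entry and is a trigger of inflammasome activation.

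The libraries differed in depth and in cell-type markers. The MI libraries held 21154342 to 21689333 estimated counts and the sham libraries 3206732 to 3591473, so the sham libraries set the limit of detection. Prox1, the defining transcription factor of lymphatic endothelium, averaged 1.26 CPM (read counts scaled to library size with TMM factors) in MI and 7.12 CPM in sham, and the pan-endothelial gene Pecam1 386 CPM in MI and 1604 CPM in sham. Of the 9 lymphatic endothelial markers, Prox1 among them, 2 were higher and 7 lower in MI, with a summed TPM (a level corrected for gene length and depth) of 298 to 368 in MI and 410 to 446 in sham. All 12 macrophage and monocyte markers were higher in MI, with a summed TPM of 22802 to 23303 in MI and 4616 to 4876 in sham. All 12 cardiomyocyte markers were lower in MI, with a summed TPM of 267 to 320 in MI and 7382 to 7600 in sham, and all 12 pan-endothelial markers were lower too, with 1136 to 1160 in MI and 6116 to 6180 in sham. Of 8 tested neutrophil markers 7 were higher in MI (summed TPM 1689 to 2079 in MI and 86.2 to 112 in sham, with Ngp at 0 in sham), and lymphocyte markers had similar sums, 15.5 to 18.6 TPM in MI and 12.7 to 19.4 TPM in sham, with Cd3e, Cd3g and Nkg7 each at 0 in a group. All 5 tested red cell markers were lower in MI, with a summed TPM of 198 to 254 in MI and 5864 to 6113 in sham. In such mixed RNA, fewer cells of a type and less RNA per cell cannot be told apart. The part of these cell types in the results below was not tested. Counts set against single marker genes are given where a channel is described.

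The 75 channel genes together had nearly the same summed level in both groups, but its make-up was different. The sum was 176, 161 and 171 TPM in the MI libraries, against 171, 161 and 156 TPM in the sham libraries, and the groups overlapped. Kcnn4, the intermediate-conductance calcium-activated channel of lymphocytes, macrophages and red blood cells, made up 40.8 ± 5.36% of that sum in MI and 0.889 ± 0.767% in sham (SD, n = 3 each). Kcna5, a voltage-gated channel of atrial muscle and vascular smooth muscle that macrophages also carry, made up 14.4 ± 0.282% in MI and 41.0 ± 0.886% in sham. Kcnn4 was the first channel gene by mean TPM in MI, followed by Kcna5, Kcnk13 and Kcnk6. In sham the order began with Kcna5, Kcnh6 and Kcnk6.

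**Figure D1:**
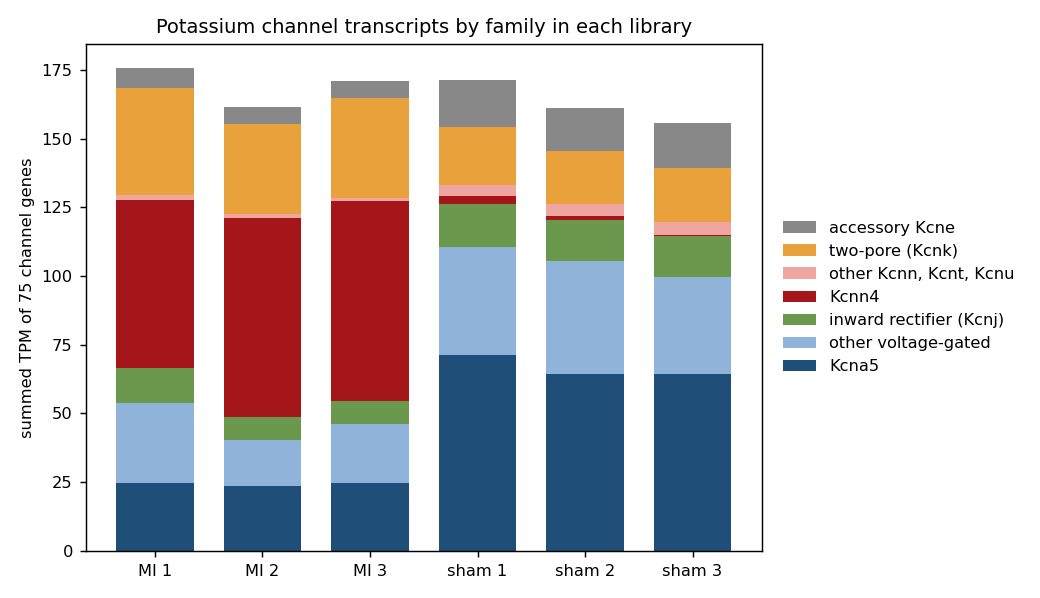
Summed TPM of the 75 potassium channel genes in each library (y axis), split by family, with Kcna5 and Kcnn4 drawn apart. The bars reach 161 to 176 TPM in MI and 156 to 171 TPM in sham, with Kcnn4 the largest block in every MI library and Kcna5 in every sham library.

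By family, the voltage-gated genes summed to 46.8 ± 6.71 TPM in MI and 105 ± 5.48 TPM in sham (SD, n = 3 each). The calcium-activated genes and their relatives (Kcnn, Kcnt and Kcnu) summed to 70.2 ± 6.37 TPM in MI and 5.95 ± 1.07 TPM in sham, of which Kcnn4 was 68.8 TPM in MI and 1.49 TPM in sham. The two-pore genes summed to 36.1 ± 3.12 TPM in MI and 20.01 ± 0.787 TPM in sham. For the inward rectifiers the sum was 9.77 ± 2.57 TPM in MI and 15.1 ± 0.326 TPM in sham. The Kcne genes, which encode small accessory subunits, summed to 6.45 ± 0.524 TPM in MI and 16.3 ± 0.934 TPM in sham. The MI and sham libraries did not overlap in any of these 5 sums.

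Of the 36 genes tested, 9 rose and 22 fell in MI at an adjusted p below 0.05 (edgeR's quasi-likelihood test, Benjamini-Hochberg adjustment over 13370 genes). Among all genes tested, 36.4% were higher and 36.9% lower in MI, and their median log2 fold change was -0.01, against -1.31 for the channel genes. With libraries scaled to total counts in place of TMM, 3549 genes were higher and 6628 lower, and of the channel genes 8 rose and 22 fell. The groups did not overlap for 30 of the 36 channel genes, against 76.1% of all genes tested. A low-count filter decides in part which genes can be counted here: 13 of the 36 were above its level of 0.808 CPM in every library of both groups, 6 in MI only, 16 in sham only and 1 in neither group throughout. Passing through a single group needs a library below that level in the other group. The filter thus favoured a higher level where such a gene passed, and its direction is no independent result. Among the 13 present in both groups, 3 rose (Kcnj2, Kcnk6 and Kcnk13) and 9 fell, where 36.5% of such genes overall were higher and 36.5% lower.

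Family counts depended on which group carried a gene over the filter. Of 16 voltage-gated genes tested, 5 rose and 9 fell, and all 5 that rose had passed through MI only. Among the 6 present in both groups, 0 rose and 5 fell. Of 8 inward rectifiers, 1 rose and 5 fell, but 4 of the 5 falls had passed through sham only, and the 2 genes present in both groups split into Kcnj2, which rose, and Kcnj15, which fell. Of 5 two-pore genes, 2 rose and 3 fell, and all 3 falls had passed through sham only, while both genes present in both groups, Kcnk6 and Kcnk13, rose. Of 5 Kcnn and Kcnt genes, 1 rose and 3 fell, and the 1 present in both groups, Kcnt2, fell. Both Kcne genes tested were present in both groups and fell. No difference between families was tested. Split instead by the cells in which the channels are best known, 1 rose and 9 fell of 11 tested cardiac genes (median -2.67), while 4 rose and 1 fell of 5 leukocyte genes (median 2.71). Of the 11 cardiac genes, 6 had passed through sham only, where the filter favoured a fall. The 5 present in both groups gave 1 rise, 3 falls and 1 gene that did not pass. Of the 5 leukocyte genes, Kcnn4 and Kcna3 had passed through MI only and Kcnk5 through sham only, and Kcnk6 and Kcnk13, present in both groups, rose. The contrast between the lists therefore rests largely on genes whose direction the filter favoured. The cardiac genes summed to 35.8 ± 2.61 TPM in MI and 99.8 ± 4.39 TPM in sham, of which Kcna5 was the largest single part. The leukocyte genes summed to 112 ± 2.52 TPM in MI and 16.6 ± 2.09 TPM in sham.

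**Figure D2:**
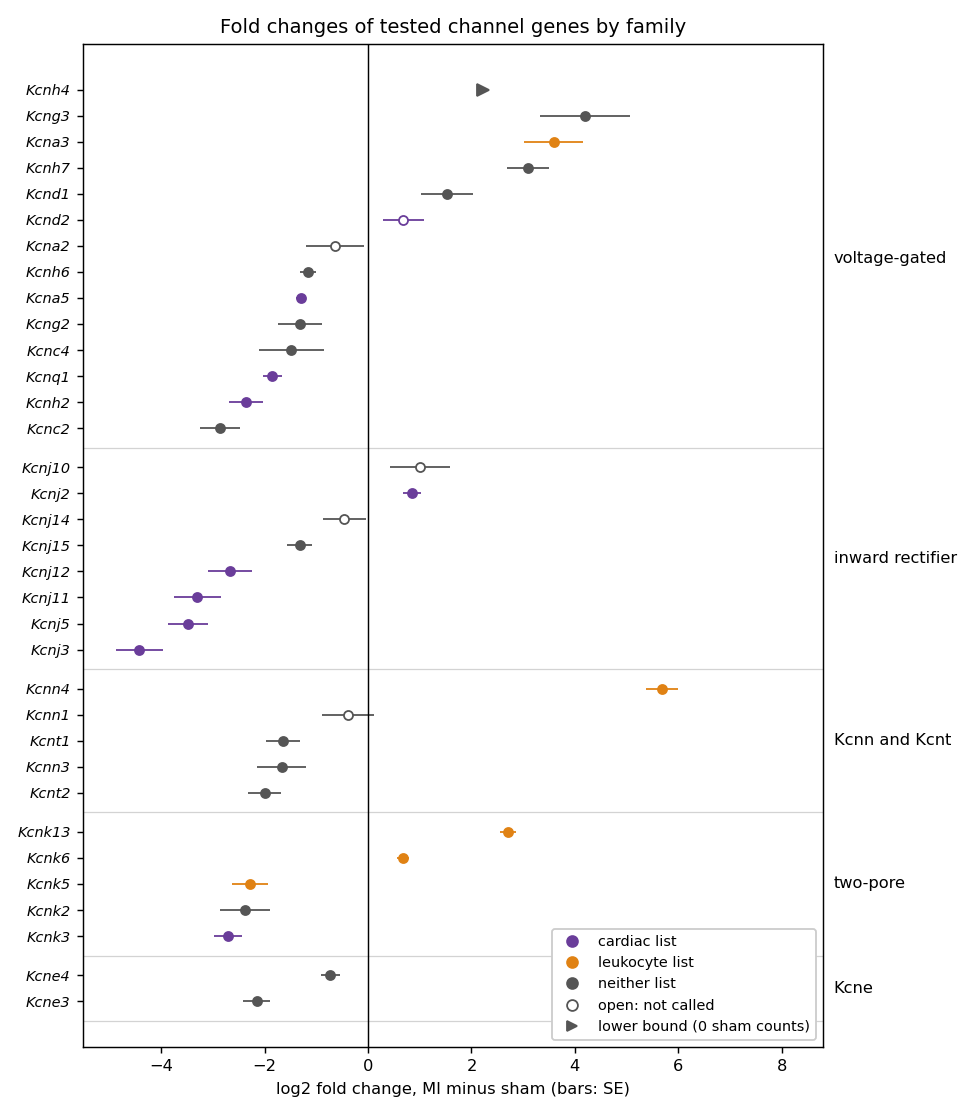
Log2 fold change, MI minus sham, of tested channel genes by family (bars are SE), with the cardiac and leukocyte lists in colour. Most points lie below 0, while Kcnn4 (5.68), Kcna3 (3.59) and Kcnk13 (2.71) of the leukocyte list lie above it, and the arrowhead for Kcnh4 marks a lower bound.

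Kcnn4 rose most among the genes counted in both groups. Kcnn4 (Entrez 16534, chromosome 7 from 24369826 to 24385212 of GRCm38.p6, protein coding) had 66.1, 89.7 and 84.9 CPM in the MI libraries, against 2.97, 1.28 and 0.276 CPM in the sham libraries. The sham values rest on 12, 5 and 1 counts, and the lowest MI library, MI 1, lay far above the highest sham library. The log2 fold change was 5.68 ± 0.31 (SE; adjusted p = 8.01e-09, edgeR), a 51.3-fold rise, and it was 6.64 without sham 1. Kcnn4 had passed through MI only, where the filter favoured a rise.

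The other leukocyte channels moved unequally. Kcnk13, a two-pore channel of microglia and other macrophages (chromosome 12 from 99963149 to 100062682), had 39.5, 40.4 and 40.4 CPM in MI, against 7.18, 6.42 and 4.69 CPM in sham. The MI libraries agreed within about 1 CPM and all lay above sham, a 6.53-fold rise (log2 fold change 2.71 ± 0.15, SE; adjusted p = 1.17e-08, edgeR). Kcna3, the voltage-gated channel that holds the membrane potential of T cells and is also made by macrophages, had 14.1, 6.20 and 8.15 CPM in MI, against 0.495, 1.54 and 0.276 CPM in sham. MI 1 was the high library, the sham values rest on 2, 6 and 1 counts, and the log2 fold change of 3.59 ± 0.57 (adjusted p = 1.13e-04, edgeR) was 4.57 without sham 2. Kcna3 had passed through MI only, where the filter favoured a rise. The 6 tested lymphocyte markers gave 2 higher and 2 lower calls. Kcnk6, a two-pore channel that carries macrophage potassium efflux, had 32.5, 29.7 and 32.8 CPM in MI, against 19.6, 19.3 and 20.99 CPM in sham. Its groups were tight and did not overlap, and the rise was 1.59-fold (log2 fold change 0.67 ± 0.12; adjusted p = 2.48e-04, edgeR). With libraries scaled to total counts, the log2 fold change of Kcnk6 was 0.32 (adjusted p = 0.0277, edgeR). Kcnk5, a two-pore channel opened by alkaline pH and described in T cells and kidney, fell 4.85-fold, with 0.561 ± 0.119 CPM in MI and 2.76 ± 0.249 CPM in sham (SD, n = 3 each). Kcnk5 had passed through sham only, where the filter favoured a fall.

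**Figure D3:**
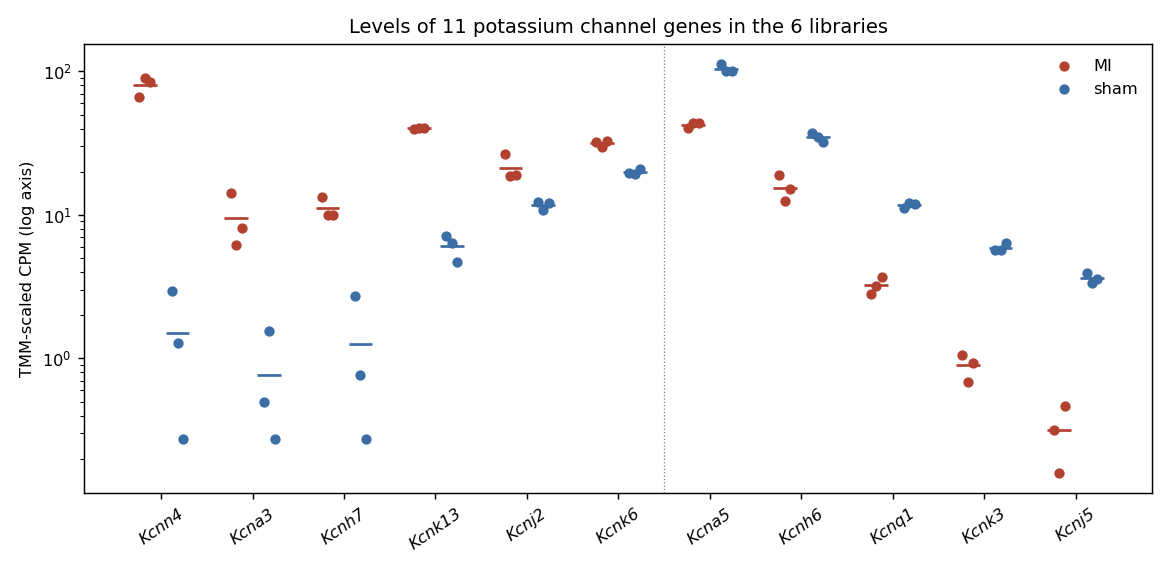
CPM of 11 potassium channel genes in each library on a log axis, with points for libraries and lines for group means. The 6 genes on the left were higher in MI and the 5 on the right lower, with no overlap between the groups for any of them. Kcnn4, Kcna3 and Kcnh7 had passed the filter through MI only, and Kcnk3 and Kcnj5 through sham only.

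Set against the pan-leukocyte gene Ptprc, which averaged 684 ± 111 CPM in MI and 106 ± 2.81 CPM in sham, the leukocyte channels parted. Kcnn4 had 8.18, 15.1 and 13.1 counts per 100 Ptprc counts in MI, against 2.73, 1.21 and 0.267 in sham, so that it was 8.63 times as high per Ptprc count. Kcnk13 had 5.97 ± 0.980 per 100 Ptprc counts in MI and 5.73 ± 1.06 in sham, and the groups overlapped. Kcnk6 had 4.68 ± 0.581 in MI and 18.8 ± 1.30 in sham, so this gene was higher in CPM and lower per Ptprc count in MI. For Kcna3 the values were 1.35 ± 0.360 in MI and 0.726 ± 0.639 in sham, again with overlap. Kcnn4 and Kcna3 had passed the filter through MI only. The exact two-sided permutation test gave p = 0.1 for Kcnn4 and Kcnk6, the smallest value that 3 against 3 libraries allow, p = 0.7 for Kcnk13 and p = 0.3 for Kcna3. Over the 16 such ratios computed the smallest adjusted p was 0.16. With so few libraries none could have passed, so not passing says nothing about the ratios.

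**Figure D4:**
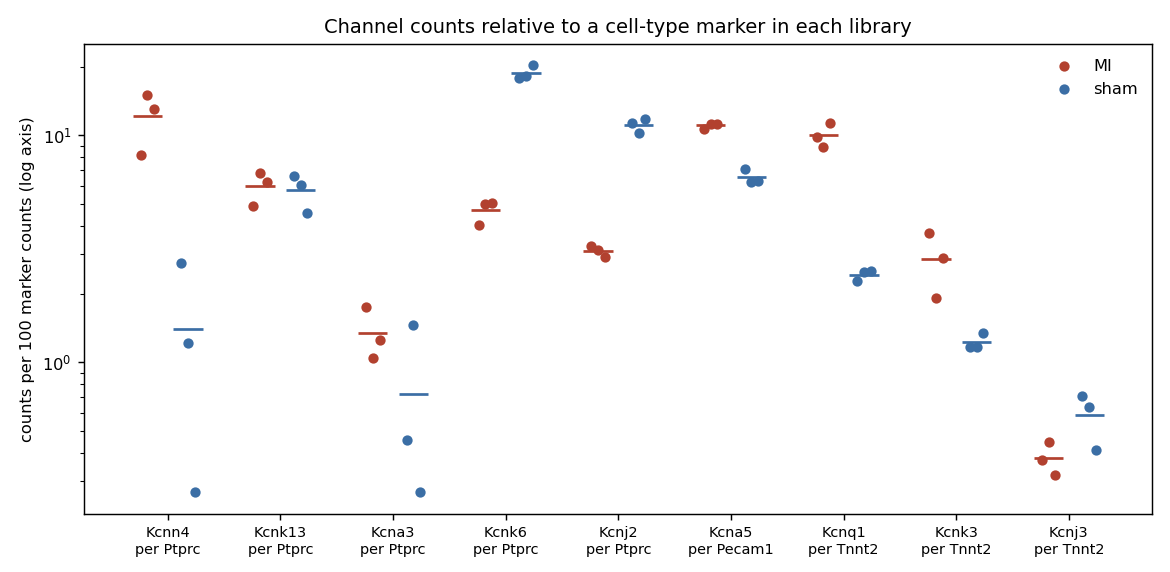
Counts of channel genes per 100 counts of a marker gene in each library on a log axis (Ptprc for leukocytes, Pecam1 for endothelium, Tnnt2 for cardiomyocytes), with lines for group means. Kcnn4 per Ptprc count was 12.1 in MI and 1.40 in sham, whereas Kcnk13 per Ptprc count was 5.97 in MI and 5.73 in sham.

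Among the cardiac channels, Kcna5 was the most abundant. Kcna5 (chromosome 6 from 126532551 to 126535555) had 40.5, 43.8 and 43.6 CPM in MI, against 112, 100.4 and 101 CPM in sham, and fell 2.45-fold (log2 fold change -1.29 ± 0.09, SE; adjusted p = 1.06e-07, edgeR). Kcnq1, whose channel with the Kcne1 subunit carries the slow delayed rectifier current, had 2.81, 3.18 and 3.69 CPM in MI and 11.1, 12.1 and 11.9 CPM in sham. It fell 3.61-fold, and all sham libraries lay well above all MI libraries. Kcnq1ot1, an antisense RNA, lies inside Kcnq1, and the strand setting of the counts was not given, so the Kcnq1 value may hold reads of either strand. Kcne1 itself was not tested, with 5 counts over the MI libraries and 3 over the sham libraries. Kcnh2, the rapid delayed rectifier, fell 5.14-fold, with 13, 13 and 9 counts in MI and 13, 13 and 11 counts in sham before scaling to depth. Unlike Kcna5 and Kcnq1, Kcnh2 had passed through sham only, where the filter favoured a fall.

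The G protein-gated, ATP-sensitive and background channels of the heart were low, above the filter level in sham only, where the filter favoured a fall. Kcnj3 and Kcnj5 encode the 2 subunits of the atrial channel that acetylcholine opens. Kcnj3 had 0.106, 0.159 and 0.104 CPM in MI, against 3.46, 3.08 and 1.93 CPM in sham, and fell 21.4-fold (log2 fold change -4.42 ± 0.46, SE; adjusted p = 3.33e-06, edgeR). Kcnj5 had 0.315 ± 0.154 CPM in MI and 3.63 ± 0.312 CPM in sham and fell 11.2-fold. Kcnj3 in MI rests on 7 counts over the 3 libraries, and neither gene overlapped between the groups. Kcnj11, the pore of the ATP-sensitive channel of ventricle and pancreas, fell 9.83-fold, with 0.265, 0.688 and 0.208 CPM in MI and 2.97, 5.39 and 3.31 CPM in sham. Its log2 fold change of -3.30 was -3.98 without MI 2, the highest MI library. Kcnk3, an acid-sensitive background channel, fell 6.51-fold, with 0.895 ± 0.189 CPM in MI and 5.90 ± 0.393 CPM in sham, and Kcnk2, a stretch-sensitive one outside both lists, fell 5.19-fold.

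The remaining inward rectifiers went both ways. Kcnj2, which sets the resting potential of ventricular muscle and is also made by endothelium and macrophages, had 26.4, 18.5 and 18.9 CPM in MI, against 12.4, 10.8 and 12.2 CPM in sham. All MI libraries lay above all sham libraries, with MI 1 highest, and the rise was 1.81-fold (log2 fold change 0.85 ± 0.18, SE; adjusted p = 0.00111, edgeR). With libraries scaled to total counts, the log2 fold change of Kcnj2 was 0.50 (adjusted p = 0.0265, edgeR). Per 100 Ptprc counts, Kcnj2 had 3.10 ± 0.177 in MI and 11.1 ± 0.816 in sham. Kcnj12, its partner in cardiomyocytes, fell 6.35-fold, with 0.477, 0.477 and 0.208 CPM in MI and 2.23, 2.31 and 3.04 CPM in sham. Kcnj12 had passed through sham only, where the filter favoured a fall. Kcnj15, best known from kidney, fell 2.50-fold, with 3.32 ± 0.800 CPM in MI and 8.31 ± 1.20 CPM in sham. Kcnj10 and Kcnj14 did not pass, with log2 fold changes of 1.008 ± 0.58 and -0.46 ± 0.41.

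The genes of the transient outward current were near the limit of detection. Kcnd2 had 3.71, 1.91 and 2.75 CPM in MI and 1.24, 1.54 and 2.49 CPM in sham, the groups overlapped, and it did not pass (log2 fold change 0.68 ± 0.40, SE; adjusted p = 0.143, edgeR), although it did without MI 2 (0.89; adjusted p = 0.0389). In TPM its direction was the other way, at 0.0567 ± 0.0115 in MI and 0.147 ± 0.163 in sham. Kcnd3 was not tested, with 13 counts over the MI libraries and 10 over the sham libraries. Kcna4, also of this current, was not tested and had 9 counts over the MI libraries and 0 over the sham libraries. Kcnip2, the cardiac accessory protein of the same channel, had 0.849, 0.530 and 0.571 CPM in MI and 12.1, 8.48 and 12.7 CPM in sham, a 16.8-fold fall. It had passed through sham only, where the filter favoured a fall, and its MI values rest on 16, 10 and 11 counts.

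Relative to the cardiomyocyte gene Tnnt2, some cardiac channels were higher in MI and others overlapped between the groups. With 3 against 3 libraries the smallest exact p is 0.1, so none of these ratios could pass, before or after adjustment. Tnnt2, the troponin of heart muscle, fell 14.9-fold, with 32.2 ± 3.55 CPM in MI and 481 ± 8.28 CPM in sham. Kcnq1 had 10.04 ± 1.25 counts per 100 Tnnt2 counts in MI and 2.43 ± 0.130 in sham, without overlap. Kcnh2 (1.93 ± 0.485 in MI and 0.665 ± 0.0240 in sham) and Kcnk3 (2.84 ± 0.892 in MI and 1.23 ± 0.103 in sham) were likewise higher per Tnnt2 count. Kcnj3 had 0.379 ± 0.0627 in MI and 0.586 ± 0.157 in sham, with overlap, and Kcnj5 and Kcnj11 overlapped as well. Kcnj12 had 1.22 ± 0.525 in MI and 0.526 ± 0.102 in sham, also with overlap. The exact permutation p was 0.1 for Kcnq1, Kcnh2 and Kcnk3 (adjusted p = 0.16 over the 16 ratios) and 0.2 for Kcnj3 and Kcnj12. Kcna5 was set against Pecam1 and not against Tnnt2, with 11.04 ± 0.310 per 100 Pecam1 counts in MI and 6.52 ± 0.476 in sham. The groups did not overlap, with an exact permutation p of 0.1 (adjusted p = 0.16).

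Among channels outside both lists, Kcnh6 of the ether-a-go-go family fell, while its relatives Kcnh7 and Kcnh4 were higher in MI. Kcnh6 was present in both groups, but Kcnh7 and Kcnh4 had passed through MI only, where the filter favoured a rise. Kcnh6 was the second channel gene by TPM in sham and had 18.9, 12.5 and 15.2 CPM in MI, against 37.1, 34.9 and 32.3 CPM in sham. It fell 2.24-fold without overlap (adjusted p = 2.94e-05, edgeR). Kcnh7 had 13.4, 9.96 and 10.02 CPM in MI, against 2.72, 0.770 and 0.276 CPM in sham. The sham values rest on 11, 3 and 1 counts, and the log2 fold change of 3.09 ± 0.40 was 4.37 without sham 1. Kcnh7 overlaps Gca, a neutrophil and macrophage calcium-binding protein gene, and the strand setting of the counts was not given, so its counts are uncertain. Non-coding RNA genes overlap Kcnh6, Kcnh2, Kcnk3, Kcnk13, Kcne3 and Kcne4, among others, and the same limit holds there. Kcnh4 had 26, 22 and 21 counts in MI and 0 in every sham library, which makes it at least 4.67-fold higher against a floor of 3 counts over the sham group.

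The remaining calls were in scarce genes. Kcnd1 and Kcng3 had passed through MI only, where the filter favoured a rise. Kcnt1, Kcnn3, Kcnc2, Kcng2 and Kcnc4 had passed through sham only, where the filter favoured a fall. Kcnd1 rose 2.89-fold, with 2.77 ± 0.403 CPM in MI and 0.926 ± 0.816 CPM in sham. Kcng3, a silent subunit that modifies other channels, had 101 counts over the MI libraries and 1 over the sham libraries, the single sham count lying in sham 3, and a depth-scaled ratio of 20.5 with an exact 95% counting interval of 3.59 to 817. Of the sodium-activated channels, Kcnt1 fell 3.13-fold and Kcnt2 fell to 1.42 ± 0.381 CPM in MI, against 5.74 ± 1.997 CPM in sham. Kcnn3, a small-conductance channel of endothelium and neurons, fell 3.18-fold. Kcnn3 had 0.743, 0.371 and 0.415 CPM in MI and 2.23, 1.54 and 1.10 CPM in sham, and its call was lost without sham 1 (log2 fold change -1.36; adjusted p = 0.0718, edgeR). Kcnc2 fell 7.24-fold. Kcng2 fell 2.50-fold, but not without sham 1 (log2 fold change -0.80; adjusted p = 0.188, edgeR). Kcnc4 (adjusted p = 0.0497, edgeR) lost its call without any one sham library (adjusted p = 0.0887 to 0.229, edgeR) and fell under the filter without any one MI library. Kcna2 and Kcnn1 did not pass, with log2 fold changes of -0.64 ± 0.55 and -0.38 ± 0.50.

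The accessory genes Kcne3 and Kcne4 fell to different extents. Kcne3 had 1.22, 1.17 and 1.04 CPM in MI, against 4.70, 5.65 and 4.97 CPM in sham, a 4.44-fold fall (adjusted p = 1.08e-05, edgeR). Kcne4 had 6.26, 6.14 and 6.07 CPM in MI, against 12.9, 7.96 and 9.66 CPM in sham, a 1.65-fold fall. Both sets of groups were free of overlap, with the lowest sham library of Kcne4 close above MI.

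Of the 75 genes, 39 were not tested. Each had between 1 and 68 counts over all 6 libraries, 15 of them had none in sham and 1 had none in MI, so differences in these genes were not detectable at this depth for the most part. Fitted without the filter, 6 of them passed, among them Kcnj9 and Kcnq3 higher and Kcnd3, Kcnn2 and Kcns3 lower. Kcnj9 had 12, 7 and 5 counts in MI and 0 in each sham library, at least 1.63-fold higher against the same floor.

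Of 8 pairs of neighbouring channel genes, 1 had both genes tested. Kcna3 and Kcna2 lie 52754 bases apart on chromosome 3, and the first rose while the second did not pass. Beside Kcnj2, Kcnj16 lies 38196 bases away on chromosome 11 and was not tested, with 1 count over all libraries.

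RefSeq promoter windows of GRCm38.p6 were at hand for 52 of the 75 genes. The 250 bases before a RefSeq start site are shown for Kcnn4 and Kcnk13, the 2 genes that rose with the highest CPM in MI, for Kcnj2, the cardiac gene that rose, and for Kcna5, the gene that fell with the highest CPM in sham. For Kcnj2 and Kcna5 this site is the outer edge of the RefSeq gene. For Kcnn4 and Kcnk13 it lies 437 and 1350 bases inside the RefSeq bounds given above, at the outermost transcript start of the GENCODE vM21 annotation. The outermost GENCODE start of Kcna5 lies 143 bases further into the gene than the RefSeq start used here. None of the 4 windows overlaps a GENCODE exon. Each is printed 5′ to 3′ on the strand of the gene, with capitals where the letters GAGGAA (the core read by PU.1 and other ETS factors) or CACGTG (an E-box) occur on either strand.
Kcnn4: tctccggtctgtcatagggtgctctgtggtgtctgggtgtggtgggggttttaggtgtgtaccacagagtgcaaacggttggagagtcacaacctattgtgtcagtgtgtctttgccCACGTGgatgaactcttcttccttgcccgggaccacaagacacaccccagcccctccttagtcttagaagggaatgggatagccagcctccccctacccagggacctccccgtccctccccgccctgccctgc
Kcnk13: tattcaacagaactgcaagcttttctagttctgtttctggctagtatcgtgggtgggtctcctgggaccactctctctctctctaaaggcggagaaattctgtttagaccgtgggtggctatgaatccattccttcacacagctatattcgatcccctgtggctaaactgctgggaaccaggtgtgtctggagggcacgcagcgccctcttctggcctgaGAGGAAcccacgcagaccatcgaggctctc
Kcnj2: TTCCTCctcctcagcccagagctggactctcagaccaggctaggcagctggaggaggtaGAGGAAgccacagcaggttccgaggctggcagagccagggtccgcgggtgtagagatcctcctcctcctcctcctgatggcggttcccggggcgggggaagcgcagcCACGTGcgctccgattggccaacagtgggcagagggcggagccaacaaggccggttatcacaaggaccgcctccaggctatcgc
Kcna5: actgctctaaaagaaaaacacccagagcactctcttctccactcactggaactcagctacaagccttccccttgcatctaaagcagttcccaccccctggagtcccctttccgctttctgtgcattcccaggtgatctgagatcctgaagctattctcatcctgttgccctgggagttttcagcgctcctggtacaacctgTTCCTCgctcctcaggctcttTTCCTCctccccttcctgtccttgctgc
The windows are chr7:24370013-24370262 on the plus strand for Kcnn4, chr12:99964249-99964498 on the plus strand for Kcnk13, chr11:111065914-111066163 on the plus strand for Kcnj2 and chr6:126535556-126535805 on the minus strand for Kcna5.

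GAGGAA was found in rising genes and in Kcna5, the falling gene of the 4. Kcnk13 held GAGGAA once, Kcnj2 and Kcna5 held it 2 times each, and Kcnn4 did not hold it. CACGTG, a motif searched for after these windows had been seen, occurred once each in Kcnn4 and Kcnj2. Among the other channel windows it occurred in Kcnh4, which rose, and in Kcne4, which fell. Over all 32851 windows of the same length, GAGGAA occurred in 23.3% and CACGTG in 6.02%, against 26.5% and 5.88% of the 68 windows of the channel genes. The AP-1 letters TGANTCA, in 6.75% of all windows and 2.94% of the channel windows, occurred in none of the 4. The windows differed in base composition, with 58.8% G and C in Kcnn4, 52.8% in Kcnk13, 65.6% in Kcnj2 and 53.2% in Kcna5, against a median of 52.4% over all windows. Such matches describe these letters and no more.

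Genes for partners of the channels and for other potassium transport went both ways. Of 11 tested partner genes, 4 rose and 7 fell, against 73.3% of all genes passing in either direction. Kcnab2, an accessory subunit of voltage-gated channels abundant in blood cells and neurons, had 87.5, 101 and 97.4 CPM in MI, against 8.17, 6.93 and 13.3 CPM in sham, a 10.2-fold rise (adjusted p = 6.39e-09, edgeR). Its relative Kcnab1 fell 4.28-fold, with 4.59 ± 1.10 CPM in MI and 19.6 ± 3.97 CPM in sham. Abcc9, the regulatory subunit of the ATP-sensitive channel of muscle and vessel wall, fell 3.32-fold, with 22.97, 16.5 and 20.5 CPM in MI and 69.0, 58.3 and 71.8 CPM in sham. The 9 mural cell markers all fell too, with a summed TPM of 513.5 to 537 in MI and 2090 to 2118 in sham. Kcnma1, the large-conductance calcium-activated pore gene outside the symbol pattern, had 10 counts over the MI libraries and 6 over the sham libraries and was not tested.

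Of 15 tested genes of potassium pumps and cotransporters, 5 rose and 9 fell (33.3% and 60.0%), where 36.4% of all genes tested were higher and 36.9% lower. Of the 15, 13 were present in both groups and 2 had passed through sham only. Among the small pump regulators, Fxyd5 rose 3.92-fold, with 558 ± 81.0 CPM in MI and 142 ± 5.31 CPM in sham, while Fxyd6 had 22.1 ± 3.19 CPM in MI and 129 ± 12.98 CPM in sham.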

How the data were processed

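The members and gene lists were chosen with earlier results of these data known. Per the file headers, the deposited table gives estimated counts per gene and library, not scaled, and TPM computed by the authors; 12 further per-sample columns and the group averages were not used. Reads came from a BGISEQ-500 and were mapped to GRCm38, per the series' design text. The submitters' processing notes list GRCm38.p6 and, without a role, Agilent Feature Extraction 9.1. Which aligner and counter were run is not given in the sources used here. Groups came from the sample titles.

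Counts were rounded. In R 4.3.3, edgeR 4.0.16 applied filterByExpr (13370 genes kept), TMM scaling and the quasi-likelihood test with group as the only term, calling genes at a Benjamini-Hochberg adjusted p below 0.05. Each SE was derived from the fold change and its F statistic (log2 fold change over root F). Bounds use 3 counts over the sham group (0.26 CPM); bounds and intervals cover counting error only. Alternatives used DESeq2 1.42.0 and limma 3.58.1. The procedure was tested on simulated data in which few genes changed, as many up as down. Here 73.3% of genes tested were called, so that test does not cover the scaling of these libraries.

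Genes were named if a member reached 2 CPM in the higher group, was on the cardiac or leukocyte list, or was called without overlap, with up to 4 partner and 4 transport genes of smallest p. Some genes that meet this rule are counted but not reported here by name. Other genes, such as Kcna2, Kcnj9 and Kcnma1, were named for their place in a count. E-box letters were added after the windows were seen. Replicate numbers did not pair the libraries.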

Additional observations from a re-analysis of the deposited data

How the results depend on the processing

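Of 421 refitted values of single channel genes, 402 kept their direction and call, 18 lost the call, 1 gained it and 0 reversed. Refits in which a gene was not tested gave no value and are not among the 421. Of all 75 genes, 9 rose and 22 fell. The count rising was 5 by limma on log2(TPM + 1); the count falling was 11 under the stricter filter (1 CPM in a group, 100 counts in all) and 13 with MI thinned to the sham depth, settings that tested 20, 20 and 19 of the genes. Among voltage-gated genes, 2 rose when thinned and 1 by log2(TPM + 1), and 5 fell under each of the stricter filter, thinning and log2(TPM + 1). Among inward rectifiers, 2 rose with no filter, and 1 fell under the stricter filter and 3 when thinned. Of the calcium-activated group 1 fell by log2(TPM + 1), and of the two-pore genes 1 fell under the stricter filter and 1 when thinned. Of the cardiac list 4 fell under the stricter filter. Of the leukocyte list 0 fell under the stricter filter or thinning, where Kcnk5 was not tested.

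Leaving out each library in turn gave 6 to 11 rising and 17 to 21 falling, with 2 to 7 and 6 to 8 of the voltage-gated genes, 1 to 1 and 4 to 5 of the inward rectifiers, 1 to 1 and 2 to 3 of the calcium-activated group, 2 to 2 and 3 to 3 of the two-pore genes, 1 to 2 and 8 to 10 of the cardiac list, and 4 to 4 and 1 to 1 of the leukocyte list. Voltage-gated rises were 2, 3 and 2 without MI 1, MI 2 and MI 3, where fewer genes were tested.

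With libraries scaled to total counts the median log2 fold change of all genes was -0.36, against -0.01, and 3549 genes were higher and 6628 lower instead of 4861 and 4940; 8 channel genes rose and 22 fell, and Kcnd1 lost its call (adjusted p = 0.0541, edgeR). With the replicate number as a block, 9 rose and 20 fell; same-numbered libraries had deviations correlated at -0.07, -0.04 and 0.00, so the numbers share only a name. The log2(TPM + 1) scale gave smaller changes for low genes, such as -1.198 instead of -3.48 for Kcnj5 and -0.900 instead of -2.67 for Kcnj12. That scale also moved the median of all genes to -0.14. Without any one MI library, Kcnc4, Kcnd1, Kcng2, Kcng3, Kcnh4, Kcnj12 and Kcnn3 fell under the filter and gave no value. The shallow sham libraries limit detection of scarce channels.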
